A study of Mus musculus with 6 samples.

Results

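The 10 genes described here encode the calcium store of the cardiomyocyte, the sarcoplasmic reticulum: the calcium pump gene Atp2a2, its small inhibitors Pln and Sln, the release channel gene Ryr2, the proteins that sit with the channel (Casq2, Trdn, Asph and Jph2) and the luminal proteins Hrc and Srl. They were taken by gene symbol, and each has 1 row among the 56691 gene rows of the deposited count table. Primary cardiomyocytes of neonatal mice had received a serotype 5 adenovirus with the cTNT promoter, that of the cardiac troponin T gene, which limits expression to heart muscle cells. There were 3 libraries with the virus carrying HMGB2, a DNA-bending chromatin protein, and 3 libraries with the empty virus, called the vector. All 6 libraries therefore come from infected cells, no uninfected cells are among them, and the labels name no other allele or agent, no exact age and no dose. The comparison of the groups asks how the transcripts of the calcium store differ when HMGB2 is overexpressed.

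In a heartbeat, calcium that enters through the L-type channel of the surface membrane opens the ryanodine receptor, and calcium leaves the store to start contraction. The pump then returns it to the lumen, where calsequestrin binds it. Phospholamban and sarcolipin hold the pump back, and phosphorylation of phospholamban relieves that hold. This machinery grows with the heart after birth, when the store takes over much of the calcium supply for the beat.

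The libraries held between 12498215 (vector 1) and 16618365 (HMGB2 1) counts assigned to genes, and 15429 genes passed the filter on low counts, among them all 10 described here. Levels are given as CPM (counts over library size, scaled by the trimmed mean of M values) and, where genes are compared with each other, as the authors' deposited FPKM, which also divides by gene length. Hmgb2 itself had 184 ± 10.9 CPM with HMGB2 and 42.6 ± 5.59 CPM with the vector (SD, n = 3 each), without separation of viral and chromosomal transcripts. HMGB2 3 and vector 1 stood apart from the other libraries of their groups, and their difference moved with gene length. Over 11499 genes with at least 1 FPKM in every library, length had a Spearman's rho of -0.55 with the deviation of HMGB2 3 and of -0.58 with that of vector 1, so each result is also given without both where they matter. The labelled cell type was checked against 12 cardiomyocyte markers, all of which passed the filter. Summed, these markers held 25923 to 27290 CPM in the HMGB2 libraries and 15090 to 15922 CPM in the vector libraries. Markers of other heart cells were present too, with 4404 to 4497 CPM with HMGB2 against 4954 to 5028 CPM with the vector over 8 fibroblast markers.

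With HMGB2, 8 of the 10 genes rose and 0 fell, and 2 missed the threshold (edgeR quasi-likelihood test, Benjamini-Hochberg adjusted p under 0.05 over all genes tested). Of all genes tested, 14.4% rose and 10.8% fell. The median log2 fold change of the 10 genes was 0.91, and that of all genes tested was -0.0022. The rises ran from 1.38-fold for Asph to 2.74-fold for Atp2a2. In CPM, all 3 HMGB2 libraries lay above all 3 vector libraries for 9 of the 10 genes, the exception being Ryr2. The same held for 21.6% of all genes tested. At an unadjusted p under 0.05 the counts were 10 higher and 0 lower, and DESeq2 and limma each called 8 higher and 0 lower. These are bulk libraries, in which more cardiomyocytes and more RNA per cardiomyocyte cannot be told apart.

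**Figure D1:**
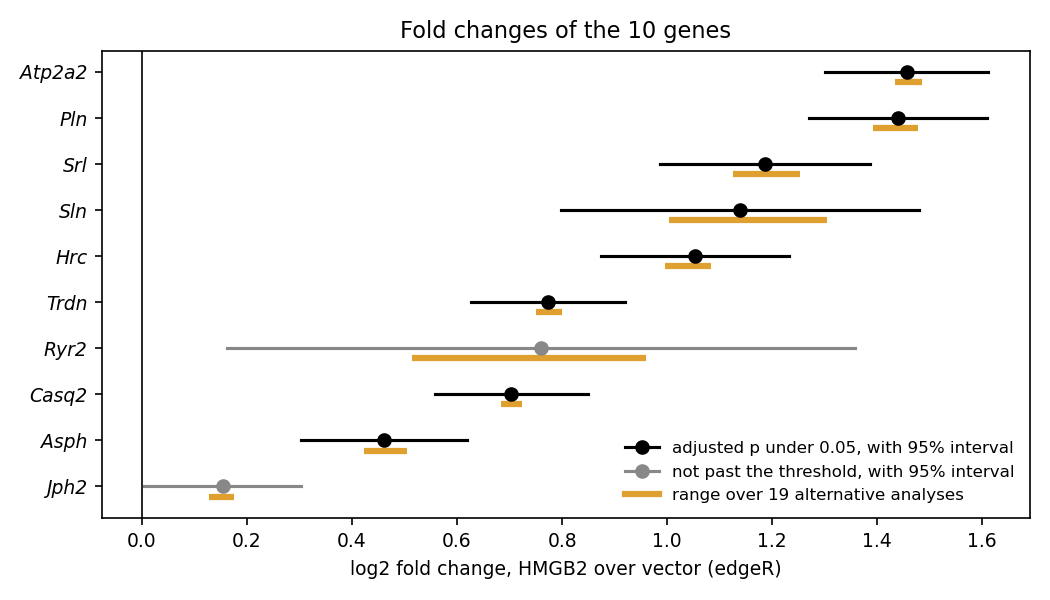
Log2 fold change of each gene, HMGB2 over vector (x axis), with its 95% interval from edgeR; grey marks the 2 genes that did not pass the threshold, and the orange bar is the range over 19 alternative analyses. Atp2a2 (1.46) and Pln (1.44) lie at the top, Jph2 (0.15) lies lowest, and Ryr2 has the widest interval, from 0.16 to 1.36.

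The pump gene and its inhibitor genes all rose. Atp2a2 encodes SERCA2, which moves calcium from the cytosol into the store (ENSMUSG00000029467, GRCm38 chromosome 5, 122453513 to 122502225, minus strand). It had 2727, 2772 and 2592 CPM in the HMGB2 libraries and 953, 990 and 1007 CPM in the vector libraries. The groups lay far apart, and the spread within each was small. By edgeR the log2 fold change was 1.46, with an SE of 0.07 and an adjusted p of 1.6e-06. Among the 2302 tested genes with a mean of at least 100 CPM over the 6 libraries, 13 had a larger log2 fold change. Its cardiac and its ubiquitous splice form are counted together here.

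Pln encodes phospholamban, the inhibitor that binds the pump in ventricle and atrium (ENSMUSG00000038583, GRCm38 chromosome 10, 53337667 to 53345987, plus strand). It had 197, 201 and 220.1 CPM with HMGB2, against 79.4, 74.8 and 73.8 CPM with the vector. HMGB2 3 was the highest library of its group and vector 1 the highest of the other, and the groups did not overlap. The rise was 2.71-fold (log2 1.44, SE 0.08, edgeR adjusted p = 2.3e-06). In GENCODE M21, exons of Gm47644 on the opposite strand share 59.6% of the exonic bases of Pln, and the strand setting of the counting is not given. Part of the Pln count could therefore belong to Gm47644, or reads on the shared bases could be missing from the Pln count. Gm47644 itself was counted at no more than 2.95 CPM in any library, and Cep85l, which shares 5.11% of the bases, at no more than 23.0 CPM.

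Sln encodes sarcolipin, the related inhibitor that in the mouse heart is known mainly from the atria (ENSMUSG00000042045, GRCm38 chromosome 9, 53850164 to 53854560, plus strand). It had 48.8, 50.1 and 64.4 CPM with HMGB2 and 30.2, 21.2 and 22.9 CPM with the vector. Here too HMGB2 3 and vector 1 were the highest of their groups, and the lowest HMGB2 library was above the highest vector library. The rise was 2.203-fold (log2 1.14, SE 0.15, edgeR adjusted p = 0.000603), and the log2 fold change ran from 1.004 to 1.305 over the alternatives. Of 7 atrial markers, 4 rose and 0 fell: the potassium channel gene Kcnj3 2.60-fold, the growth factor gene Bmp10 2.63-fold, and the light chain genes Myl7 and Myl4 1.66- and 1.39-fold. Nppa, Kcna5 and Nr2f2 did not pass. Nppa, the most abundant atrial marker, had 7423 ± 553 CPM with HMGB2 and 6801 ± 773 CPM with the vector (edgeR adjusted p = 0.381). Summed, the atrial markers overlapped between groups, with 8435 to 9633 CPM with HMGB2 and 6958 to 8689 CPM with the vector. Of 4 ventricular markers, 3 rose and 0 fell, with the transcription factor gene Irx4 at 3.28-fold and the light chain genes Myl2 and Myl3 at 1.48- and 1.26-fold. Hey2 did not pass (log2 fold change -0.20, edgeR adjusted p = 0.416). Both lists are read beside the 14.4% of all genes tested that rose and the 10.8% that fell. Myl4 lost its call in 5 of 19 alternatives, among them without HMGB2 1, vector 2 or vector 3, and Myl3 in 9 of 19, among them without any 1 library other than vector 1. The part of atrial and ventricular cells in the rise of Sln was not tested.

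**Figure D2:**
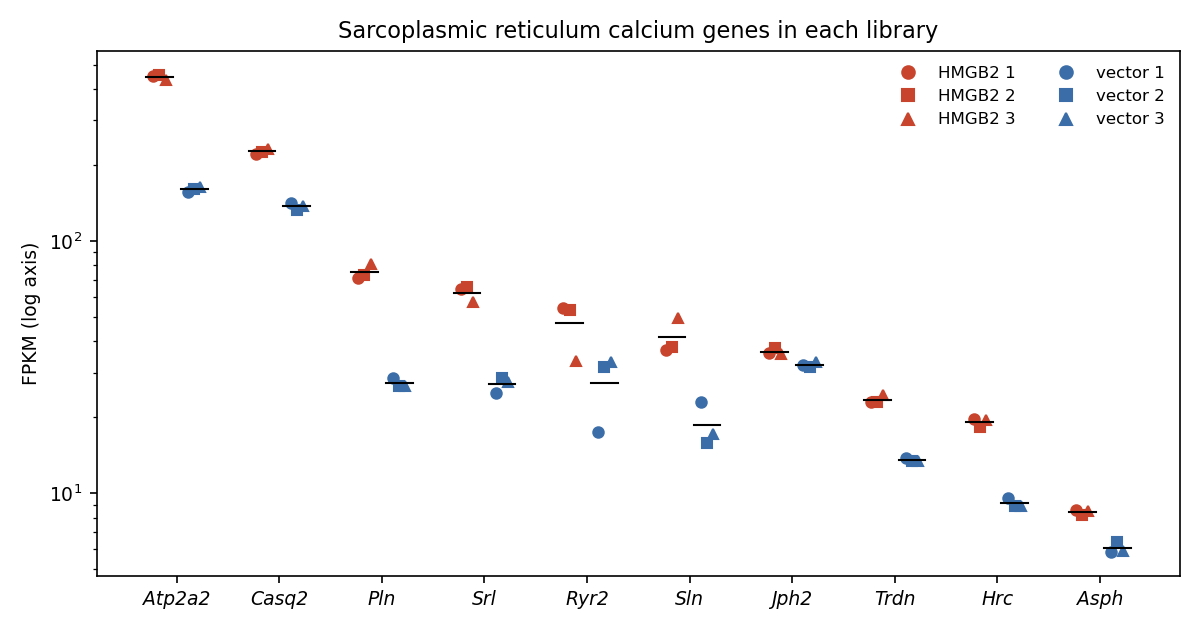
FPKM (log axis) of the 10 genes in each library, ordered by their mean with HMGB2; points are libraries, marked by replicate number, and bars are group means. Atp2a2 and Casq2 are the highest per length in both groups and Asph the lowest. The groups of Ryr2 nearly meet, at 33.52 FPKM in HMGB2 3 and 33.13 FPKM in vector 3.

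Promoter sequences before the transcription start were available from RefSeq (GRCm38.p6) for 5 of the 10 genes, and 4 are shown, because they set 3 genes that rose (Pln, Casq2 and Hrc) beside the gene with the smallest change (Jph2). Each is the 250 bases before the start, 5′ to 3′ on the gene's own strand, and capitals mark matches on either strand to MEF2 (by its name, a site of muscle genes), CArG (by its name, bound by serum response factor), GATAA (GATA factors) and TATAAA (the TATA box). The Pln sequence lies at chr10:53337436-53337685 (plus strand), that of Casq2 at chr3:102086165-102086414 (plus), that of Hrc at chr7:45335019-45335268 (plus) and that of Jph2 at chr2:163397994-163398243 (minus).
Pln: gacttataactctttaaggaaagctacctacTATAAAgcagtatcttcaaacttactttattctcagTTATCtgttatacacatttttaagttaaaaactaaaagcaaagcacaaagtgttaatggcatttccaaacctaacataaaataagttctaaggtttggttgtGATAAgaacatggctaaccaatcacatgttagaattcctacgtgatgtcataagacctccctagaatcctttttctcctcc
Casq2: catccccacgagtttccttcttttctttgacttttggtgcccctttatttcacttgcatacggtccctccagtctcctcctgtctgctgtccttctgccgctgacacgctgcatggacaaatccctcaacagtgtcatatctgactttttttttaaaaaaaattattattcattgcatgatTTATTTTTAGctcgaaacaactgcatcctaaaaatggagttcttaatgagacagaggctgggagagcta
Hrc: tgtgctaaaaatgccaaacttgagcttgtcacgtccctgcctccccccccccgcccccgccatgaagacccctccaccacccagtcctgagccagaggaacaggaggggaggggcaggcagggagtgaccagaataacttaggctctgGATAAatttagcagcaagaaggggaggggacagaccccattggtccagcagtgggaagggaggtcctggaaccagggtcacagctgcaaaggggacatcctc
Jph2: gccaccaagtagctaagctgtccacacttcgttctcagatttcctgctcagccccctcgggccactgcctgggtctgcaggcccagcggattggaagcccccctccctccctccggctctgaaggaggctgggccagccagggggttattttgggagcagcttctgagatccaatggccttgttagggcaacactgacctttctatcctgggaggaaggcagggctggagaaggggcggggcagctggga
Casq2 holds the MEF2 match, beginning 69 bases before the start, and 2.92% of the 32851 RefSeq promoter windows of this length hold one. Pln holds GATAA in 2 places and TATAAA in 1, the latter beginning 219 bases before the start. Whether that match acts as a TATA box was not tested. Hrc holds GATAA in 1 place. Of all windows, 22.6% hold GATAA and 12.4% hold TATAAA. Jph2 has no capitals, so these letters are not in its window. Motifs that were searched but not marked do occur there: CCAAT in 2 places, GGGCGG in 1 and CANNTG (N is any base) in 1. CCAAT is also in Pln and Hrc, GGGCGG in Hrc, and CANNTG in all 4 windows, while CATTCC is in none. Of all windows, 33.85% hold CCAAT, 32.74% GGGCGG, 66.22% CANNTG and 12.64% CATTCC. CArG, found in 1.47% of all windows, has no match in these 4. The windows differ in base composition, with 32.8% G or C in Pln, 41.6% in Casq2, 59.6% in Hrc and 62.0% in Jph2. These matches are descriptions of the letters and were not tested for binding.

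The release channel gene did not pass the threshold. Ryr2 encodes the ryanodine receptor (ENSMUSG00000021313, GRCm38 chromosome 13, 11553102 to 12106945, minus strand). It had 1563, 1535 and 952 CPM with HMGB2, and 502, 926 and 962 CPM with the vector. In CPM, HMGB2 3 lay just under vector 3, and vector 1 lay far below the rest, so the groups overlapped. In FPKM, HMGB2 3 (33.52) lay just above vector 3 (33.13), so this overlap depends on the library scaling. By edgeR the log2 fold change was 0.76, with an SE of 0.26 and an adjusted p of 0.0666. Without vector 1 and HMGB2 3, the libraries held 1563 and 1535 CPM with HMGB2 against 926 and 962 CPM with the vector. The rise of 0.72 on the log2 scale then passed (edgeR adjusted p = 8.58e-15, 2 libraries a group). Those libraries were left out because they stood apart in these data, which narrows the spread within groups, so this p is not independent support. The same fit called 20.9% of all genes tested higher and 19.1% lower. Ryr2 also passed without HMGB2 3 alone (log2 fold change 0.96, edgeR adjusted p = 0.0225). With an offset for gene length in each library it passed too (0.77, edgeR adjusted p = 0.000176), and it passed in none of the other 16 alternatives. Over all 19 alternatives the edgeR, DESeq2 or limma adjusted p reached 0.354.

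Ryr2 was the longest of the 10, with 28790 exonic bases in GENCODE M21, against 1318 for Sln, the shortest. Compared with the other libraries of its group, HMGB2 3 was lower by -0.70 on the log2 scale for Ryr2 and higher by 0.38 for Sln. Vector 1 was likewise lower by -0.91 for Ryr2 and higher by 0.45 for Sln. Across the 10 genes, which share each library, length and this deviation had a Spearman's rho of -0.62 in HMGB2 3 and -0.84 in vector 1. Asph, with 16102 exonic bases, deviated by only -0.0016 and -0.08, so the order by length was not strict.

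**Figure D3:**
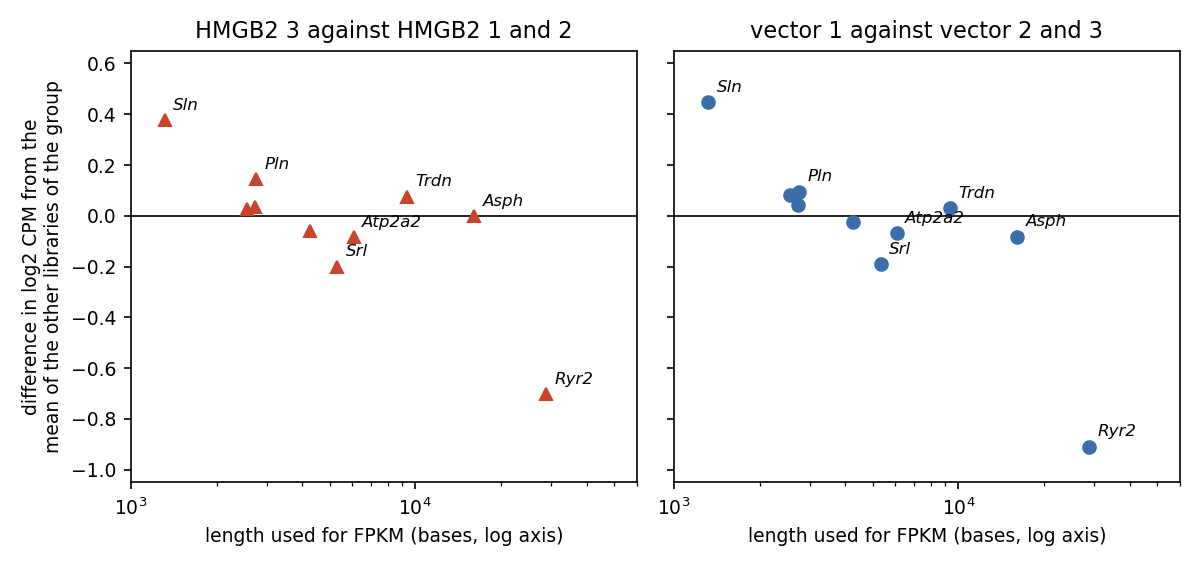
Difference in log2 CPM of HMGB2 3 (left) and vector 1 (right) from the mean of the other 2 libraries of the group, against the gene length used for FPKM (log axis); each point is 1 of the 10 genes. Ryr2, the longest, lies lowest in both panels (-0.70 and -0.91), and Sln, the shortest, lies highest (0.38 and 0.45).

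Of the 4 genes whose proteins sit with the channel, Casq2, Trdn and Asph rose and Jph2 missed the threshold. Casq2 encodes cardiac calsequestrin, the main calcium buffer of the lumen (ENSMUSG00000027861, GRCm38 chromosome 3, 102086415 to 102146514, plus strand). It had 604, 618 and 625 CPM with HMGB2, against 386, 368 and 381 CPM with the vector. The groups were tight and did not overlap, with a rise of 1.63-fold (log2 0.70, SE 0.06, edgeR adjusted p = 6.75e-05).

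Trdn encodes triadin, which ties calsequestrin to the channel (ENSMUSG00000019787, GRCm38 chromosome 10, 33080554 to 33476709, plus strand). It had 214, 216 and 226 CPM with HMGB2 and 130 CPM, 128 CPM and 127 CPM with the vector. No HMGB2 library came near the vector libraries, and the rise was 1.71-fold (log2 0.77, SE 0.07, edgeR adjusted p = 3.76e-05).

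Asph encodes junctin, a relative of triadin, and from the same gene the enzyme aspartate beta-hydroxylase (ENSMUSG00000028207, GRCm38 chromosome 4, 9448069 to 9669344, minus strand). It had 138, 132 and 135 CPM with HMGB2, against 94.5, 104 and 96.1 CPM with the vector. The groups were separate, and the rise of 1.38-fold was the smallest of those called (log2 0.46, SE 0.07, edgeR adjusted p = 0.00133). The annotation lists 20 transcripts of Asph, and these counts do not show whether those of junctin or of the enzyme differed. Exons of Clvs1 on the opposite strand share 14.3% of its exonic bases, and Clvs1 was counted at no more than 2.30 CPM.

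Jph2 encodes junctophilin 2, which holds the store's membrane close to the surface membrane (ENSMUSG00000017817, GRCm38 chromosome 2, 163336242 to 163397993, minus strand). It had 152, 160.2 and 150.01 CPM with HMGB2 and 137, 136 and 142 CPM with the vector. The lowest HMGB2 library was above the highest vector library, but by little. The log2 fold change was 0.15 with a 95% interval of 0.0047 to 0.30, and the edgeR adjusted p of 0.126 missed the threshold. It passed in 1 of the 19 alternatives, without vector 1 and HMGB2 3 (0.17, edgeR adjusted p = 0.00534). That fit called 20.9% of all genes tested higher and 19.1% lower.

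Both luminal protein genes rose. Hrc encodes the histidine-rich calcium binding protein, which meets both the pump and triadin (ENSMUSG00000038239, GRCm38 chromosome 7, 45335290 to 45338974, plus strand). It had 50.4, 46.9 and 49.5 CPM with HMGB2, against 24.5, 23.3 and 23.0 CPM with the vector, with no overlap. The rise was 2.07-fold (log2 1.05, SE 0.08, edgeR adjusted p = 1.95e-05).

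Srl encodes sarcalumenin, a calcium-binding protein of the longitudinal part of the store that supports the pump (ENSMUSG00000022519, GRCm38 chromosome 16, 4480216 to 4541816, minus strand). It had 343, 348 and 301 CPM with HMGB2 and 133, 155 and 148 CPM with the vector. HMGB2 3 and vector 1 were the lowest of their groups, unlike for Pln and Sln, and the groups did not overlap. The rise was 2.28-fold (log2 1.19, SE 0.09, edgeR adjusted p = 1.88e-05).

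Per length, the pump gene was the most abundant in both groups. Atp2a2 averaged 446 ± 12.2 FPKM with HMGB2 and 160.2 ± 3.93 FPKM with the vector (SD, n = 3 each). Casq2 came next, with 226 ± 5.33 FPKM with HMGB2 and 137 ± 4.23 FPKM with the vector. With HMGB2, Pln (75.1 ± 5.09 FPKM) and Srl (62.4 ± 4.44 FPKM) followed, then Ryr2 (47.1 ± 11.7 FPKM), Sln (41.6 ± 6.93 FPKM) and Jph2 (36.4 ± 1.08 FPKM), which did not differ beyond their spread. Trdn, Hrc and Asph were lowest, at 23.5 ± 0.89, 19.2 ± 0.77 and 8.45 ± 0.19 FPKM. With the vector, Jph2 (32.3 ± 0.79 FPKM) came after Casq2, and Pln, Srl and Ryr2 lay together at 27.0 to 27.4 FPKM. Sln (18.6 ± 3.74 FPKM), Trdn (13.6 ± 0.24 FPKM), Hrc (9.12 ± 0.37 FPKM) and Asph (6.05 ± 0.29 FPKM) were lowest there. The FPKM of Ryr2 and Asph divide by all exonic bases of the gene and so understate the level of any shorter transcript.

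The ratio of inhibitor to pump was also taken within each library, where library scaling drops out. The ratio of Pln to Atp2a2 in FPKM was 0.159, 0.160 and 0.187 with HMGB2, and 0.184, 0.167 and 0.162 with the vector. The groups overlapped fully, with a difference of -0.02 on the log2 scale (exact permutation test, two-sided, p = 0.8), which restates their log2 fold changes of 1.44 (Pln) and 1.46 (Atp2a2). Which of the pair rose more changed with the library left out. The ratio of Sln to Atp2a2 was 0.0826, 0.0835 and 0.115 with HMGB2, and 0.146, 0.0988 and 0.105 with the vector. This was a difference of -0.31 on the log2 scale with overlapping groups (exact p = 0.3), and of -0.14 without vector 1. The ratio of Sln to Pln differed by -0.30 (exact p = 0.2), and by -0.18 without vector 1.

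For 2 of the 9 ratios compared, the groups did not overlap. The ratio of Srl to Atp2a2 was 0.144, 0.144 and 0.133 with HMGB2, and 0.159, 0.179 and 0.167 with the vector, a difference of -0.27 on the log2 scale. The ratio of Hrc to Casq2 was 0.0889, 0.0809 and 0.0844 with HMGB2, against 0.0678, 0.0675 and 0.0643 with the vector, a difference of 0.35. Both had an exact permutation p of 0.1, which is the smallest that 3 against 3 libraries can give, and an adjusted p of 0.45 over the 9 ratios. The 4 ratios to Ryr2 (of Casq2, Trdn, Jph2 and Asph) followed the level of Ryr2 in vector 1 and HMGB2 3 and overlapped between groups, with exact p values of 0.3 to 0.9. The ratio of Jph2 to Ryr2 differed by -0.63 on the log2 scale, by -0.55 without both of those libraries and by -0.33 without vector 1 alone. For Asph to Ryr2 the difference was -0.32, and -0.04461 without vector 1, -0.19 without HMGB2 2 and -0.21 without HMGB2 1.

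**Figure D4:**
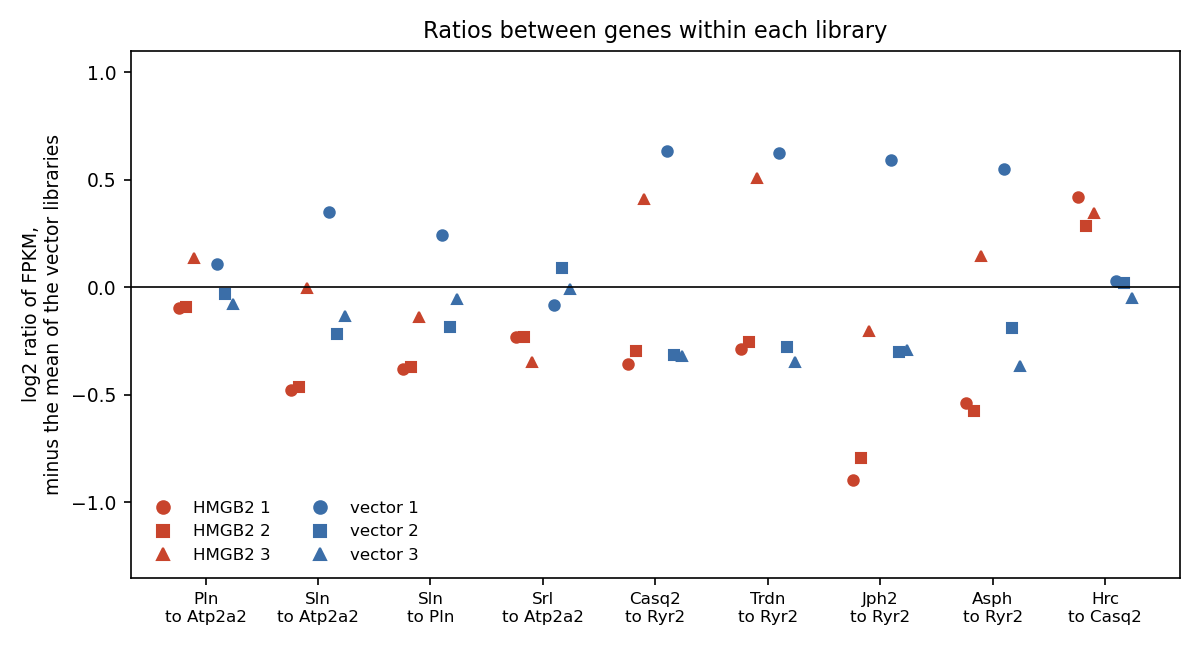
Log2 ratio of FPKM between pairs of the 10 genes in each library, less the mean of the vector libraries (y axis); points are libraries, marked by replicate number. Pln to Atp2a2 lies close to 0 in all 6 libraries, Srl to Atp2a2 lies lower and Hrc to Casq2 higher in all 3 HMGB2 libraries, and vector 1 and HMGB2 3 lie high in the ratios to Ryr2.

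The cardiomyocyte markers also rose, and the 10 genes were set against them. Of the 12 markers, 11 rose and 0 fell, beside 14.4% and 10.8% of all genes tested, with a median log2 fold change of 0.64. Ttn (titin) did not pass and overlapped between groups (log2 fold change 0.42, edgeR adjusted p = 0.525). Myl3 lost its call in 9 of 19 alternatives, Tpm1 in 4, Tnnc1 in 2, and Tnni3 and Myl7 in 1 each. The other markers that rose kept their calls in all 19. The cardiac actin gene Actc1 rose 2.64-fold, Mybpc3 (myosin binding protein C) 1.97-fold, Tnnt2 (troponin T) 1.79-fold and Myh7 (beta myosin heavy chain) 1.53-fold. The summed FPKM of the 10 genes was 11.7%, 11.7% and 10.6% of that of the markers with HMGB2, against 9.31%, 10.7% and 10.9% with the vector, and the groups overlapped. The log2 difference in this share was 0.14, and it was 0.07 without vector 1, 0.24 against Tnnt2 alone, 0.27 with CPM in place of FPKM and 0.31 against Myh6 alone. Against Actc1 alone it turned to -0.32. The HMGB2 libraries lay above all vector libraries against Myh6 and below all of them against Actc1. Atp2a2 alone was 5.34%, 5.35% and 4.71% of the markers with HMGB2 and 3.22%, 3.75% and 3.82% with the vector. Pln was 0.850%, 0.856% and 0.882% with HMGB2 and 0.591%, 0.624% and 0.617% with the vector. Both were higher in every HMGB2 library than in any vector library.

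Relative to the summed markers, Jph2, Casq2, Trdn and Asph were lower in every HMGB2 library than in any vector library. Jph2 was 0.426%, 0.442% and 0.390% of the marker sum with HMGB2, against 0.662%, 0.738% and 0.770% with the vector. Casq2 was 2.63%, 2.65% and 2.53% with HMGB2 and 2.90%, 3.10% and 3.21% with the vector. Trdn and Asph differed by -0.17 and -0.48 on the log2 scale. Sln, Srl and Ryr2 overlapped between groups on this measure, and Hrc was higher by 0.11. These differences depend on the denominator. Actc1 was the largest part of the marker sum, at a mean of 3813 FPKM with HMGB2 and 1426 FPKM with the vector. Against Tnnt2 alone and against Myh6 alone, Casq2, Trdn and Asph overlapped between groups, with Trdn at -0.07 and 0.00036 on the log2 scale. Jph2 stayed below all vector libraries against each of them, by -0.69 and -0.62. Set against Actc1, Atp2a2 differed by 0.06 and Pln by 0.04, both with overlap.

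Markers of other heart cells did not rise as a list. With all libraries, the counts of each list are read beside the 14.4% of all genes tested that rose and the 10.8% that fell. Of 8 fibroblast markers 0 rose and 2 fell (Lum and Dcn, genes of matrix proteoglycans, by 0.75 and 0.36 on the log2 scale). Of 8 endothelial markers 0 rose and 2 fell (Pecam1 and Emcn, by 0.25 and 0.30), and their sum was 2734 to 2803 CPM with HMGB2 against 3190.3 to 3230.2 CPM with the vector. Of 8 macrophage markers 0 rose and 2 fell (C1qa and Lyz2, by 1.38 and 0.58), with sums of 70.6 to 83.6 CPM with HMGB2 and 91.4 to 124 CPM with the vector. At an unadjusted edgeR p under 0.05, none of these 3 lists had a member that rose, nor did any by DESeq2 or limma. Without vector 1 and HMGB2 3 together, 6 fibroblast and 7 endothelial markers fell and 1 endothelial marker rose, in a fit in which 20.9% of all genes tested rose and 19.1% fell. Without HMGB2 1, HMGB2 2, vector 2 or vector 3 alone, 0 endothelial markers fell, in fits that called 5.49% to 7.04% of all genes lower. Without vector 2, 0 macrophage markers fell, beside 6.16% of all genes, and 1 fell without HMGB2 2, beside 5.67%. Of the fibroblast markers 1 fell without HMGB2 1 or HMGB2 2, beside 5.49% and 5.67% of all genes. Without vector 1, 4 of them fell, beside 12.4% of all genes. Of 6 smooth muscle markers Cnn1 rose and Tagln fell, by 0.68 and 0.51 on the log2 scale. Of 7 skeletal muscle markers 2 were tested, Tnnt3 with a rise of 1.74-fold and Acta1 with a fall of 0.81 on the log2 scale, and the red blood cell markers summed to at most 1.096 CPM. The part of these cells in the results was not tested.

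Beyond the 10, 52 genes of calcium handling in 6 lists were looked up, of which 50 have a row and 44 were tested. In all, 9 rose, 1 fell and 34 did not pass, beside 14.4% of all genes tested that rose and 10.8% that fell. The counts of each list below are read beside the same shares. Without vector 1 and HMGB2 3 together, 17 rose and 9 fell, beside 20.9% and 19.1% of all genes tested. Without vector 1 alone 10 rose and 6 fell, beside 16.0% and 12.4% of all genes. The number that rose was 6 without HMGB2 1 or HMGB2 2, beside 9.94% and 10.2% of all genes.

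Relatives of the pump were scarce. Atp2a3, the SERCA3 gene, rose 1.80-fold with 6.26 ± 0.418 CPM with HMGB2 and 3.45 ± 1.12 CPM with the vector (edgeR adjusted p = 0.0221, lost in 6 of 18 alternatives, among them without HMGB2 1, HMGB2 2, HMGB2 3 or vector 3). Atp2a1, the SERCA1 gene of fast muscle, had 1.28 ± 0.0857 CPM with HMGB2 and 0.738 ± 0.392 CPM with the vector and did not pass (adjusted p = 0.184). Of the pump-binding micropeptide genes, named after their values were seen, Strit1 had 0 counts in every library, which allows up to 0.181 to 0.207 CPM with HMGB2 and 0.213 to 0.240 CPM with the vector, and Mrln reached at most 0.182 CPM.

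Relatives of the release channel did not pass the threshold. Of 4 tested, 0 rose and 0 fell by edgeR, by DESeq2 and by limma, and 0 had an unadjusted p under 0.05. Itpr1, an inositol trisphosphate receptor gene, had 107 ± 18.4 CPM with HMGB2 and 90.9 ± 18.1 CPM with the vector, and Itpr3 had 82.2 ± 17.96 CPM with HMGB2 and 90.6 ± 17.9 CPM with the vector. Without vector 1 and HMGB2 3, 1 of the 4 rose and 2 fell, in a fit in which 20.9% of all genes tested rose and 19.1% fell.

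Among 6 tested luminal and junctional relatives, 2 rose. Tmem38a, which encodes the TRIC-A potassium channel that balances charge during calcium release, rose 2.28-fold (107.6 ± 4.295 CPM with HMGB2, 47.1 ± 0.637 CPM with the vector, edgeR adjusted p = 4.1e-06). Casq1, the skeletal form of calsequestrin, rose 1.48-fold (112 ± 4.87 CPM with HMGB2, 75.8 ± 4.01 CPM with the vector, adjusted p = 0.000536). Both kept their calls in all 19 alternatives.

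Of 21 modulators of the pump and the channel, 4 rose and 0 fell, beside 14.4% and 10.8% of all genes tested. Prkaca, the catalytic subunit of the kinase that phosphorylates phospholamban, rose 1.998-fold (262 ± 6.16 CPM with HMGB2, 131 ± 5.72 CPM with the vector, edgeR adjusted p = 1.12e-05). Camk2b and Camk2g, forms of the calmodulin kinase, rose 2.60- and 1.39-fold, and Akap6, which anchors that first kinase, rose 1.46-fold (edgeR adjusted p = 0.000104, 0.0116 and 0.0374). Camk2g lost its call in 3 of 19 alternatives, among them without HMGB2 1 (0.0544), and Akap6 in 8 of 19, with adjusted p up to 0.144. At an unadjusted p under 0.05, 5 modulators were higher and 1 lower. The count that rose was 2 without HMGB2 1 or HMGB2 2, beside 9.94% and 10.2% of all genes. It was 9 without vector 1 and HMGB2 3 together, beside 20.9% of all genes.

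At the surface membrane, 2 of 6 tested genes rose. Slc8a1, the sodium-calcium exchanger gene, rose 1.76-fold (817 ± 106 CPM with HMGB2, 464 ± 70.03 CPM with the vector, edgeR adjusted p = 0.00158). Cacnb2, a beta subunit of the L-type calcium channel, rose 1.75-fold (adjusted p = 0.00131). Cacna1c, the pore subunit of that channel, named after its values were seen, had 88.5 ± 21.5 CPM with HMGB2 and 55.4 ± 15.4 CPM with the vector and did not pass (log2 fold change 0.67, adjusted p = 0.0667).

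Of 5 genes of store-operated refilling, 0 rose and 1 fell. Stim2, a calcium sensor of the store, fell by 0.46 on the log2 scale (40.5 ± 1.71 CPM with HMGB2, 55.6 ± 0.482 CPM with the vector, edgeR adjusted p = 0.00164). Stim1, a second such sensor, differed by -0.21 on the log2 scale and missed the threshold (edgeR adjusted p = 0.113). DESeq2 and limma also called 0 higher and 1 lower.

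Genes common to the endoplasmic reticulum of all cells did not move with those of calcium cycling. Of 15 such genes, 0 rose and 0 fell by edgeR, DESeq2 and limma, with a median log2 fold change of -0.10, and 1 was lower at an unadjusted p under 0.05. The chaperone genes Hsp90b1 and Hspa5 had 1265 ± 76.99 and 1126 ± 77.2 CPM with HMGB2, against 1292 ± 87.0 and 1232 ± 107 CPM with the vector. Without vector 1 and HMGB2 3 together, 3 of the 15 genes rose and 7 fell, each by less than 0.31 on the log2 scale in size. In that fit 20.9% of all genes tested rose and 19.1% fell.

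**Figure D5:**
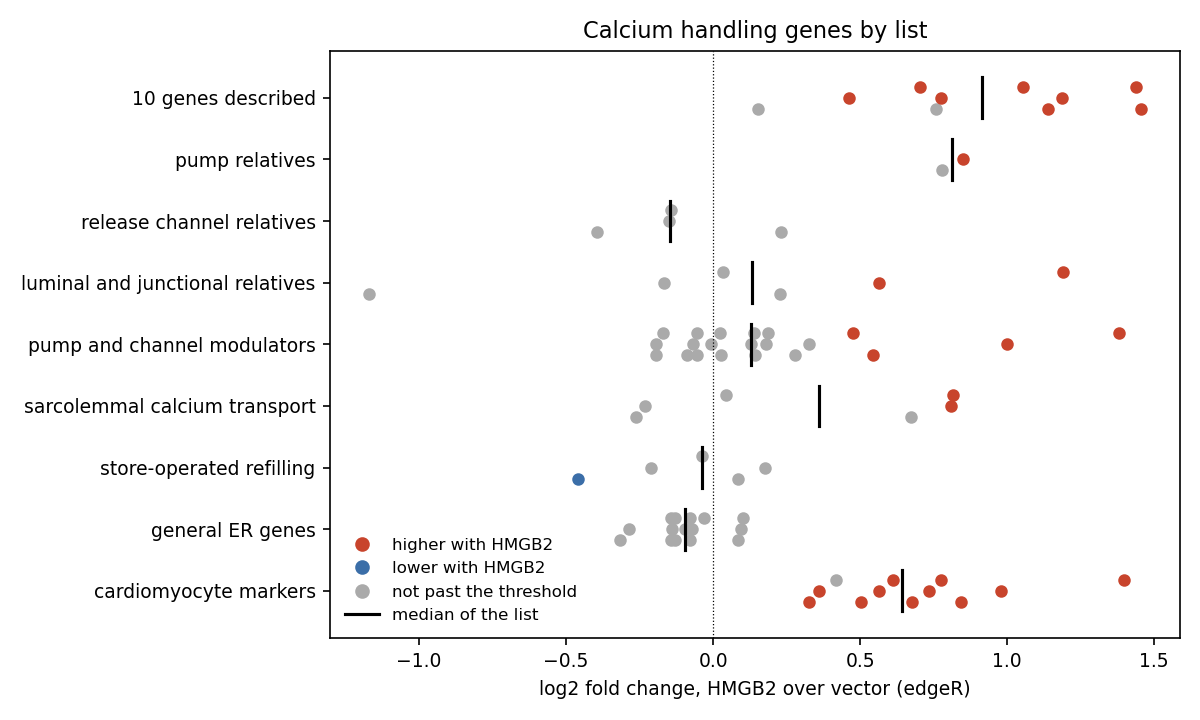
Log2 fold changes, HMGB2 over vector (x axis), of the tested genes in each list; red points rose, blue points fell, grey points did not pass the threshold, and black bars are list medians. The medians are 0.91 for the 10 genes, 0.64 for the cardiomyocyte markers and -0.10 for the general endoplasmic reticulum (ER) genes.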

How the data were processed

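Per the labels' protocols, RNA came from TRIzol extraction and was sequenced from VAHTS Universal V5 libraries. The build mm10 and the tools HTSeq 0.6.1, StringTie 1.3.3b, HISAT2 2.2.1 and FastQC 0.10.1 appear in the submitters' processing notes, with no role for each. The authors deposited raw whole-number counts per Ensembl gene and a table of FPKM values. For all 2159 genes with at least 20 FPKM in every library, count over FPKM, corrected for library total, gave a length that varied by under 1% between libraries, so the deposited FPKM are the same counts rescaled. Columns were matched to samples by group abbreviation and replicate number, and 0 columns of per-sample values were left out. Whether replicates are separate cultures or animals is not in the labels. The p-values therefore measure only the spread among these samples, which may be technical.

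The main test was that of edgeR 4.0.16, run in R 4.3.3 (filterByExpr with a minimum count of 10 and a minimum total of 15, trimmed mean of M values, robust quasi-likelihood fit on group). The SE was taken as the size of the log2 fold change divided by the root of F. DESeq2 1.42.0 and limma 3.58.1 (log2 of FPKM plus 1) were alternatives. Ratios were compared with the exact permutation test of scipy 1.17.1, with Benjamini-Hochberg adjustment over 9 ratios. The edgeR step was tested on simulated data. Counting limits cover counting error only, and a floor is 3 counts. Positions are from GENCODE M21 on GRCm38, matched by Ensembl identifier, and shared sequence was sought there with BLAST 2.17.0 (at least 95% identity over at least 100 bases). Gene positions in the tables differ from that annotation and were not used. The members and the 16 other lists were chosen with earlier results of these data known. Named genes of each list are up to 4 that passed, taken by smallest p, or up to 2 of highest mean level where fewer than 2 passed. Some further genes that did not pass or that lost calls were named after their values were seen.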

Additional observations from a re-analysis of the deposited data

How the results depend on the processing

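Over 19 alternatives, 8 to 10 of the 10 genes rose and 0 fell. Of these alternatives, the length offset was chosen after seeing the data. Leaving out vector 1 and HMGB2 3 together also rests on these data, in which both libraries stood apart. The rest were fixed at the outset. Atp2a2, Pln, Sln, Casq2, Trdn, Asph, Hrc and Srl passed in all 19. The median log2 fold change of the 10 was 0.92 to 0.98 with 1 library left out (lowest 0.9156, highest 0.9819). The numbers of other calcium genes that rose and fell were 17 and 9 without vector 1 and HMGB2 3 together, against 9 and 1 with all libraries. Of all genes tested, 20.9% rose and 19.1% fell without both, against 14.4% and 10.8% with all libraries. The number that fell was 2 with no filter, 4 with the length offset, and 1 to 6 with 1 library left out. The log2 difference was -0.09431 to 0.03669 for the ratio of Pln to Atp2a2, -0.3252 to 0.2381 for Casq2 to Ryr2 and -0.2689 to 0.3033 for Trdn to Ryr2 with 1 library left out, and 0.0443 for Trdn to Ryr2 without vector 1 and HMGB2 3. Relative to Actc1 alone, a denominator chosen after seeing the data, the summed 10 genes differed by -0.3165 on the log2 scale, against 0.1447 relative to all markers; the cause was not tested.

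Same-numbered libraries deviated with correlations of -0.358, 0.261 and -0.418, and HMGB2 3 with vector 1 at 0.571. As the libraries that stood apart weigh on these values, they cannot tell whether the numbers pair the libraries. The labels do not say. With a replicate block, 8 of the 10 genes rose, and 1459 genes rose and 754 fell in all, against 2224 and 1662 without it. As a paired difference, the summed 10 genes relative to the markers differed by 0.1447, and the ratio of Pln to Atp2a2 by -0.01754.

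Depth limits Mrln, Strit1 and the other genes under the filter, and 3 libraries a group cannot give an exact two-sided p under 0.1.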
